A study of Mus musculus with 51 samples.

Results

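The 39 mitosis genes are genes whose products carry a cell from mitotic entry to the separation of the daughter cells. They were taken as a fixed list of symbols from tables of 52636 genes. Each of the 39 matched 1 gene identifier, had at least 2 counts in every library and passed the low-count filter in every fit. The libraries came from mammary glands of mice at 6 months of age that carried the WT, D542G or Y541S form of Esr1, the gene of estrogen receptor alpha. The sources do not say whether the mutant alleles were heterozygous or in which cells they were active. All mice, including those of the vehicle groups, had hormone pellets with estradiol and progesterone (E2 and P4), and were given vehicle (MCT) or giredestrant by mouth at 30 mg/kg once a day over 4 days. Giredestrant is an oral antagonist and degrader of the estrogen receptor. RNA was sequenced from cells sorted by FACS into 4 populations. ML stands for mature luminal cells and LP for luminal progenitors, beside Basal cells and a population called N here, for which the sources give no gate. The vehicle groups are ML and Basal of each genotype. The giredestrant groups are ML, LP and Basal of each genotype and N of both mutants. The 51 libraries thus form 17 groups of 3, which the series' design text calls biological replicates.

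Most mitosis genes are transcribed late in the cell cycle, when cyclin B and its kinase CDK1 drive chromosome condensation, spindle assembly and attachment of chromosomes at the kinetochore, until the anaphase-promoting complex destroys cyclin B. Resting cells hold little of these transcripts, so their level in a tissue is widely used as a readout of dividing cells. In the mammary epithelium, estrogen and progesterone stimulate division. Much of the response is relayed from receptor-positive mature luminal cells to neighbouring cells by secreted factors.

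Total counts were 21.4 to 60.1 M per library (median 32.9 M). The Y541S giredestrant libraries had 39.3 to 60.1 M, apart from ML replicate 1 at 21.4 M. All other libraries had 24.5 to 36.4 M, apart from D542G vehicle Basal replicate 3 at 49.6 M. The part of depth in the results was not tested. Levels are given as CPM, the counts of each library scaled to a common total with factors from all 51 libraries. They are not corrected for gene length, so they compare libraries and not genes. Against the labels, 8 Basal markers (Krt5, Krt14 and others) summed to 19073 to 38236 CPM in the 18 Basal libraries. In ML libraries the same sum was 99.5 to 982 CPM. In N it was 11381 to 14470 CPM in D542G and 2103 to 4423 CPM in Y541S. Markers of ML and LP did not separate these populations in D542G with giredestrant. There, LP markers summed to 3041 to 4882 CPM in ML and 2559 to 3190 CPM in LP. ML markers (Esr1, Pgr and others) summed to 682 to 2232 CPM in ML and 1408 to 2179 CPM in LP. In WT with giredestrant, ML markers summed to 2720 to 4208 CPM in ML and 949 to 2010 CPM in LP. LP markers overlapped there, at 1199 to 3607 CPM in ML and 3159 to 3485 CPM in LP. Both sums also overlapped in Y541S with giredestrant. ML markers were at 1104 to 1658 CPM in ML of Y541S and 402 to 1172 CPM in LP. LP markers were at 1198.5 to 2426.5 CPM in ML of Y541S and 1843 to 3226 CPM in LP. In LP with giredestrant, 8 fibroblast markers (Col1a1, Dcn and others) summed to 246 to 491 CPM in WT, 610 to 3357 CPM in D542G and 4169 to 12971 CPM in Y541S. In bulk RNA of sorted cells, fewer dividing cells and less of these RNAs per dividing cell cannot be told apart.

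The promoters of the mitosis genes shared short motifs that were not used to choose them. A promoter window of 300 bases, from 250 bases before to 50 after the annotated gene start, was used from RefSeq (GRCm38.p6) for 32 of the 39 genes. The cell cycle genes homology region (CHR), read as TTTGAA on either strand, is a known element of late cell cycle promoters bound by the MuvB complexes. It occurred in 26 of 32 windows (81.2%), against 18.1% of 27025 promoters of the same length. The variant TTCGAA occurred in 3 of 32 (9.38%, against 1.57%). The CCAAT box, read as CCAAT on either strand and bound by the factor NF-Y, occurred in 26 of 32 (81.2%, against 37.9%), and at least 2 such boxes in 19 of 32 (59.4%, against 12.2%). TTTGAA or TTCGAA occurred together with CCAAT in 24 of 32 windows (75%, against 7.7%). A CHR and a CCAAT match shared bases in 1 window, that of Cdca8. A match is a description of the letters, and binding was not measured. The 4 windows below show the range, from Ccnb2 and Cdc20 with both motifs, through Hmmr with 5 CCAAT boxes, to Ccnb1 with CCAAT alone. Capitals mark TTTGAA and CCAAT or their reverse complements. Ccnb2 lies at chr9:70421505-70421804, Cdc20 at chr4:118437294-118437593, Hmmr at chr11:40733388-40733687 and Ccnb1 at chr13:100786437-100786736, all on the minus strand of GRCm38.p6.
Ccnb2: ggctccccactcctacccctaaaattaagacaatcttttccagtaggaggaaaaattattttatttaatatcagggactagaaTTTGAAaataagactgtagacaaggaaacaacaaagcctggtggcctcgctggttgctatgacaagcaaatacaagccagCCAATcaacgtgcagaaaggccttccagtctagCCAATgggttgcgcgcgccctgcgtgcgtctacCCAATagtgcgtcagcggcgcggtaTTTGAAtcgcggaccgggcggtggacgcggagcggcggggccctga
Cdc20: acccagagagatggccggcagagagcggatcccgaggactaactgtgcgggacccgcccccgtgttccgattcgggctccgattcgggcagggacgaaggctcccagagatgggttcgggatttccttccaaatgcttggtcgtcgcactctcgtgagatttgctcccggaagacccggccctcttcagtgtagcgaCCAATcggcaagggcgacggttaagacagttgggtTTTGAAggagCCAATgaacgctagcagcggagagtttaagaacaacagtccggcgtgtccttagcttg
Hmmr: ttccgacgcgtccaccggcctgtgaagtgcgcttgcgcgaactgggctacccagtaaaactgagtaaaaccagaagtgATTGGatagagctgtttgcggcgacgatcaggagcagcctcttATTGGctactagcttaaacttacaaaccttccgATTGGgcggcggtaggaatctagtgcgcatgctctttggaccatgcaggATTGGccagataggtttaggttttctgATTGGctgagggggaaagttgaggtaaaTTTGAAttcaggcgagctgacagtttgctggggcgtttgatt
Ccnb1: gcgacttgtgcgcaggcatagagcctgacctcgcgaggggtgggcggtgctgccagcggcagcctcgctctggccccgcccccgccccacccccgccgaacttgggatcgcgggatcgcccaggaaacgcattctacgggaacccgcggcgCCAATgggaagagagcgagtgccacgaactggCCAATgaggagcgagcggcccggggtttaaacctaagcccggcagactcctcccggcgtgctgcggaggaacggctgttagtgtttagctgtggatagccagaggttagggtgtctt

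In Ccnb2, the gene of cyclin B2, the CCAAT boxes begin 87, 54 and 21 bases before the start and a TTTGAA begins 4 bases after it. In Cdc20, the activator of the anaphase-promoting complex, CCAAT boxes begin 53 and 8 bases before the start, on either side of a TTTGAA at 18 bases before it. The letters of the 3 motifs were absent from the windows of Birc5, Nuf2 and Nusap1.

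**Figure D1:**
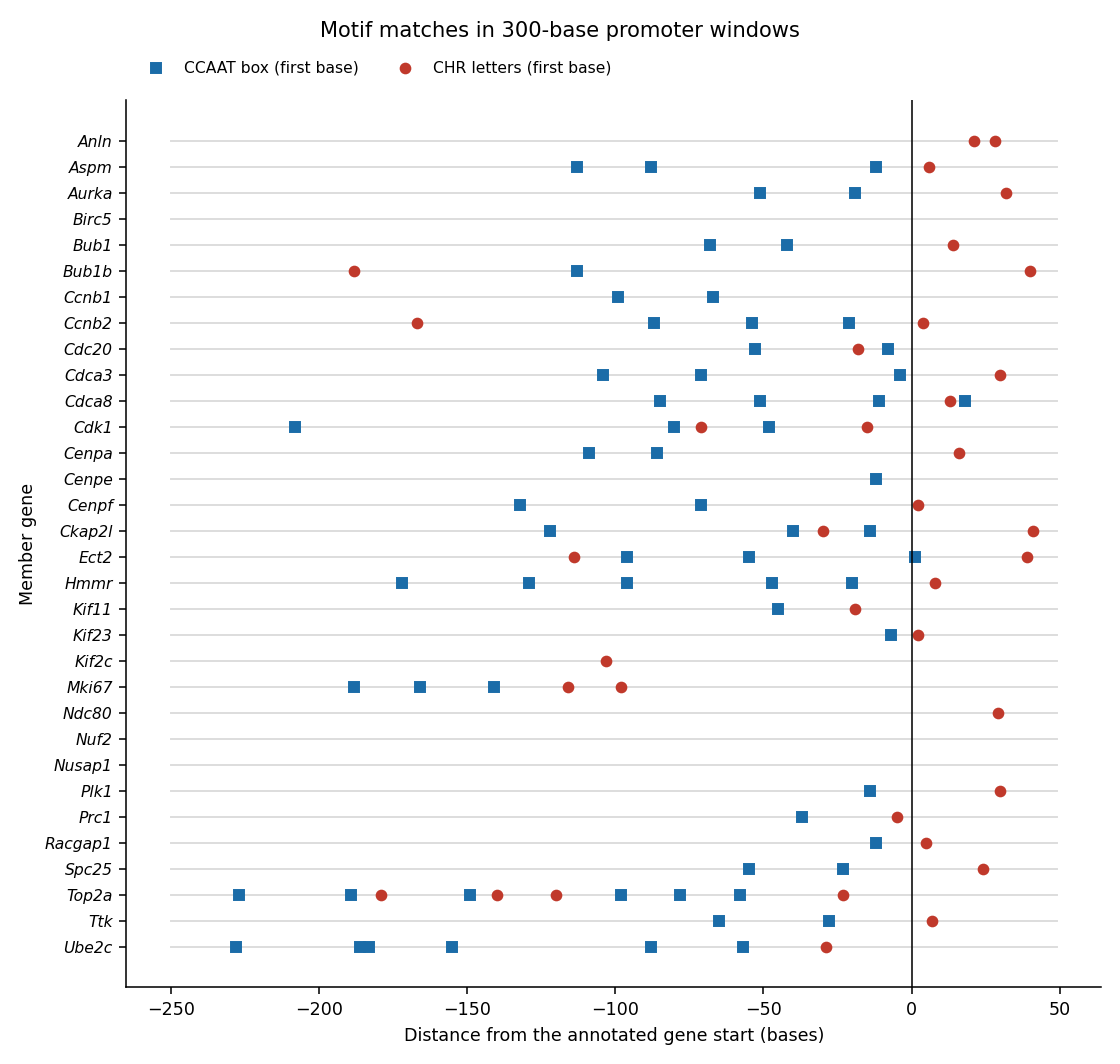
Positions of CCAAT boxes (squares) and of TTTGAA or TTCGAA, the CHR letters (circles), by distance of their first base from the annotated start, for the 32 mitosis genes with a promoter window. Of the 32 windows, 26 hold a CCAAT box and 27 hold CHR letters.

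The mitosis genes rose and fell together over the libraries. Across all 51, the log2 level of each gene correlated with the mean of the others at a median Pearson r of 0.961, and r was above 0.9 for 34 of 39. This r is a description over libraries that share genotype, population and treatment. The lowest values were those of Aurka (0.753), the Aurora A kinase of the spindle poles, Mki67 (0.799), which coats mitotic chromosomes, Cenpe (0.833), a kinetochore motor, and Cenpf (0.873), a kinetochore protein. Summed over the 39 genes, the level ran from 83.9 CPM in WT giredestrant Basal replicate 2 to 3420 CPM in D542G vehicle Basal replicate 2. That giredestrant library held the lowest value of 37 of the 39 genes. By group means, 29 genes were highest in D542G vehicle Basal and 5 in D542G vehicle ML, while 31 were lowest in D542G giredestrant Basal.

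**Figure D2:**
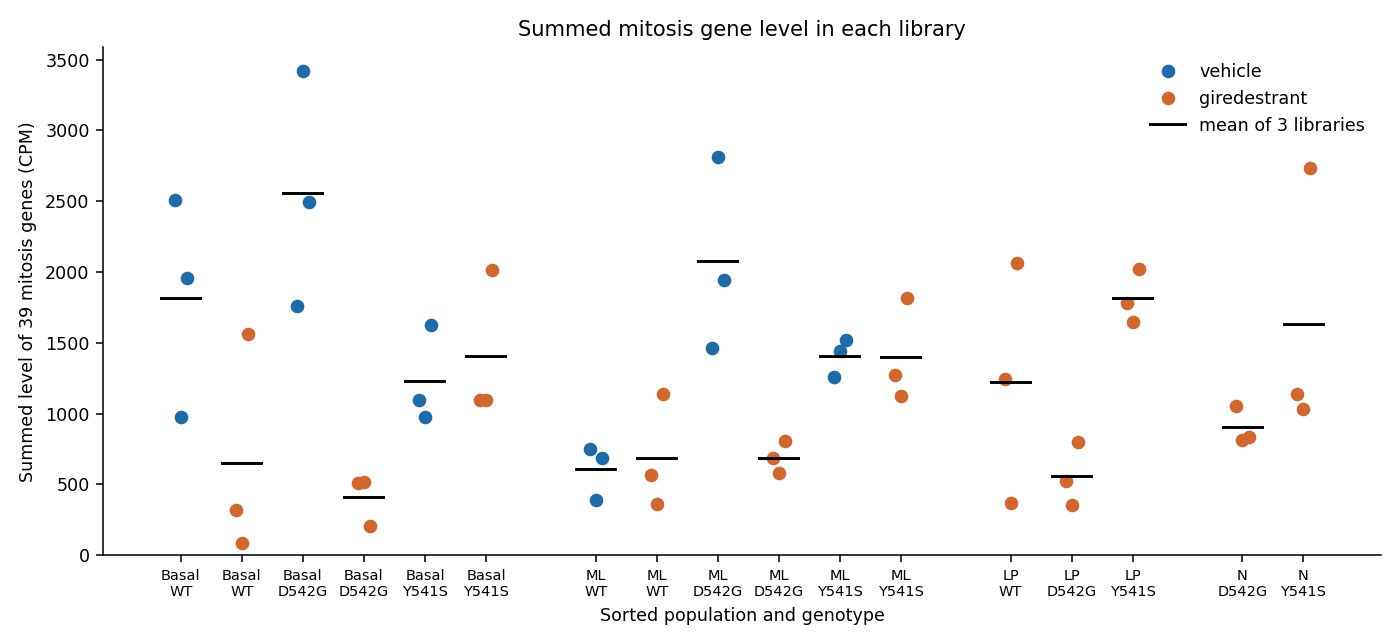
Summed level of the 39 mitosis genes in CPM (vertical axis) in each of the 51 libraries (points), by sorted population and genotype, coloured by treatment, with bars at group means. D542G giredestrant Basal libraries lie between 205 and 521 CPM, below the D542G vehicle Basal libraries at 1762 to 3420 CPM, and the Y541S ML groups overlap.

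With vehicle, the sum in WT was lower in ML than in Basal, and in the mutants the populations lay closer together. It was 750, 390 and 688 CPM in WT ML, against 2509, 978 and 1955 CPM in WT Basal. In D542G it was 1466, 2813 and 1947 CPM in ML and 1762, 3420 and 2495 CPM in Basal. In Y541S it was 1259, 1444 and 1518 CPM in ML and 1095, 979 and 1626 CPM in Basal. The WT populations did not overlap, and in each mutant they did. By library number, however, each D542G ML library lay below its Basal counterpart. In Y541S, ML lay above Basal in numbers 1 and 2 and below it in number 3.

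In WT with vehicle, 36 of 39 mitosis genes were lower in ML than in Basal at an adjusted p under 0.05 (29.2% of all genes were lower), none was higher, and the median log2 ratio was -1.60, against -0.08 over all genes. Ttk, the checkpoint kinase also called Mps1, was at 3.51, 3.41 and 2.64 CPM in ML and 22.3, 4.81 and 18 CPM in Basal, a log2 ratio of -2.23 ± 0.46 (SE, n = 3 per group, adjusted p = 0.000639, edgeR). Nuf2, a subunit of the NDC80 complex that binds microtubules, had a log2 ratio of -2.20 ± 0.38 (adjusted p = 0.000124). Hmmr, a spindle protein, had -2.19 ± 0.43, and Ccnb1, the gene of cyclin B1, -2.17 ± 0.46. The genes that did not pass were Aurka (-0.04 ± 0.40), Birc5 (-0.71 ± 0.34), which encodes survivin of the chromosomal passenger complex, and Cenpe (-1.01 ± 0.54). In D542G, Kif23 alone was lower in ML (23.1% of all genes were lower). Kif23, the motor of the central spindle, was at 28.5, 41.1 and 29.6 CPM in ML and 49.8, 87.3 and 80.3 CPM in Basal (log2 ratio -1.13 ± 0.37, adjusted p = 0.0207). With the library number within genotype as a block, 19 genes passed in D542G, 18 lower and 1 higher in ML. No gene passed without D542G vehicle ML replicate 1 or 3 or Basal replicate 3, 2 passed without ML replicate 2, and without Basal replicate 2 the 1 gene that passed was higher in ML. In Y541S, Birc5 alone was higher in ML (25.2% of all genes were higher), at 46.9, 43.3 and 53.4 CPM against 22.4, 14.1 and 29.9 CPM (1.14 ± 0.34, adjusted p = 0.0102), and with the block 10 genes passed, 9 of them higher. None passed without Y541S vehicle Basal replicate 2, and 3 passed without Basal replicate 3.

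Relative to WT, the log2 ratio of ML to Basal was higher for 4 mitosis genes in D542G (3.32% of all genes) and for 15 in Y541S (2.52% of all genes), with medians of 1.28 and 1.80 over the 39. In a single fit of all 51 libraries no mitosis gene passed in either difference. The 4 in D542G were Cdc25c, the phosphatase that activates CDK1 (1.78 ± 0.48), Ccnb2 (1.72 ± 0.39), Cenpa, the centromeric histone (1.63 ± 0.41), and Cdca3, a trigger of mitotic entry (1.60 ± 0.47). The largest in Y541S were Hmmr (2.29 ± 0.59), Nuf2 (2.27 ± 0.52) and Cdk1 (2.19 ± 0.60). With the number within genotype as a block, 33 and 37 genes passed. Leaving out 1 library gave 2 to 16 genes for D542G and 2 to 33 for Y541S. The most came without WT vehicle Basal replicate 2 in both. For D542G, 2 passed without WT vehicle Basal replicate 1 or ML replicate 2, or without D542G vehicle Basal replicate 1 or ML replicate 2. For Y541S, 2 passed without WT vehicle ML replicate 2, and 3 without WT vehicle Basal replicate 1 or Y541S vehicle Basal replicate 1 or 2. It was 5 without WT vehicle Basal replicate 3, 6 and 7 without Y541S vehicle ML replicate 2 and 1, and 8 without WT vehicle ML replicate 3.

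In ML with vehicle, mitosis genes were higher in both mutants than in WT, and more of them passed in D542G. In D542G, 37 of 39 were higher (9.37% of all genes were higher) with a median log2 ratio of 1.82, against 0.06 over all genes. Cdk1, the mitotic kinase, was at 59.5, 144 and 93.4 CPM in D542G and 32, 11.9 and 29.8 CPM in WT, a log2 ratio of 2.04 ± 0.46 (adjusted p = 0.0069). Plk1, the Polo-like kinase of the spindle and centrosomes, was at 25.7, 73.4 and 37.7 CPM against 12.8, 4.12 and 10.3 CPM (2.36 ± 0.61, adjusted p = 0.0137). For both genes every D542G library lay above every WT library, as it did for 38 of the 39. Hmmr (2.34 ± 0.48), Cdc25c (2.28 ± 0.42) and Cdc20 (1.94 ± 0.37) also rose. By role, all 6 genes of the entry control group rose (Cdk1, Ccna2, Ccnb1, Ccnb2, Cdc25c and Foxm1), as did all 8 of the spindle. All 6 of the central spindle and cytokinesis and all 3 grouped under anaphase and protein destruction rose too. Aurka (0.72 ± 0.32) and Cenpe (1.42 ± 0.55) did not pass. Leaving out 1 library gave 22 to 37 genes, the fewest without WT vehicle ML replicate 2, and 24 passed without D542G vehicle ML replicate 2.

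In Y541S ML with vehicle, 17 of 39 mitosis genes were higher than in WT (4.79% of all genes were higher), with a median log2 ratio of 1.17. Hmmr was at 20.3, 22.4 and 24.9 CPM, against 7.86, 3.27 and 8.62 CPM in WT (1.80 ± 0.48, adjusted p = 0.0252). Cenpa was at 60.7, 68.0 and 73.2 CPM against 21.5, 15.7 and 26.1 CPM (1.70 ± 0.33, adjusted p = 0.00515), and Ccnb2 had a ratio of 1.69 ± 0.39. All 3 genes grouped under anaphase and protein destruction rose (Cdc20, Ube2c and Cdca3). Neither of the chromosome structure genes did (Mki67 0.46 ± 0.45 and Top2a, topoisomerase II alpha, 1.10 ± 0.43). Over the 39 genes, however, this log2 ratio correlated with log2 transcript length at r = -0.57. Its median was 1.48 in the 10 shortest and 1.09 in the 10 longest. The part of length in this contrast of roles was not tested. The count rests on single WT and Y541S libraries. Leaving out any 1 of them left 1 to 5 genes, the fewest without WT vehicle ML replicate 2. Values of ML markers (Esr1, Pgr and others) moved with these comparisons. The 8 ML markers summed to 4643 to 5607 CPM in WT vehicle ML, 1059 to 1637 CPM in D542G and 1309 to 2843 CPM in Y541S, and their part in the result was not tested.

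In Basal with vehicle, no mitosis gene passed in D542G against WT (0.0582% of all genes called) or in Y541S against WT (0.157% of all genes called). By edgeR at an unadjusted p under 0.05 the counts were 0 and 1. The median log2 ratios were 0.52 and -0.62. The libraries of D542G and WT overlapped for all 39 genes, and those of Y541S and WT for all but Mki67 and Cenpf. Mki67 was at 4.36, 2.31 and 6.30 CPM in Y541S and 15.3, 7.79 and 14.1 CPM in WT, and Cenpf at 5.69, 4.95 and 6.50 CPM against 18, 7.86 and 21.4 CPM, so that every Y541S library lay below every WT library without a call.

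**Figure D3:**
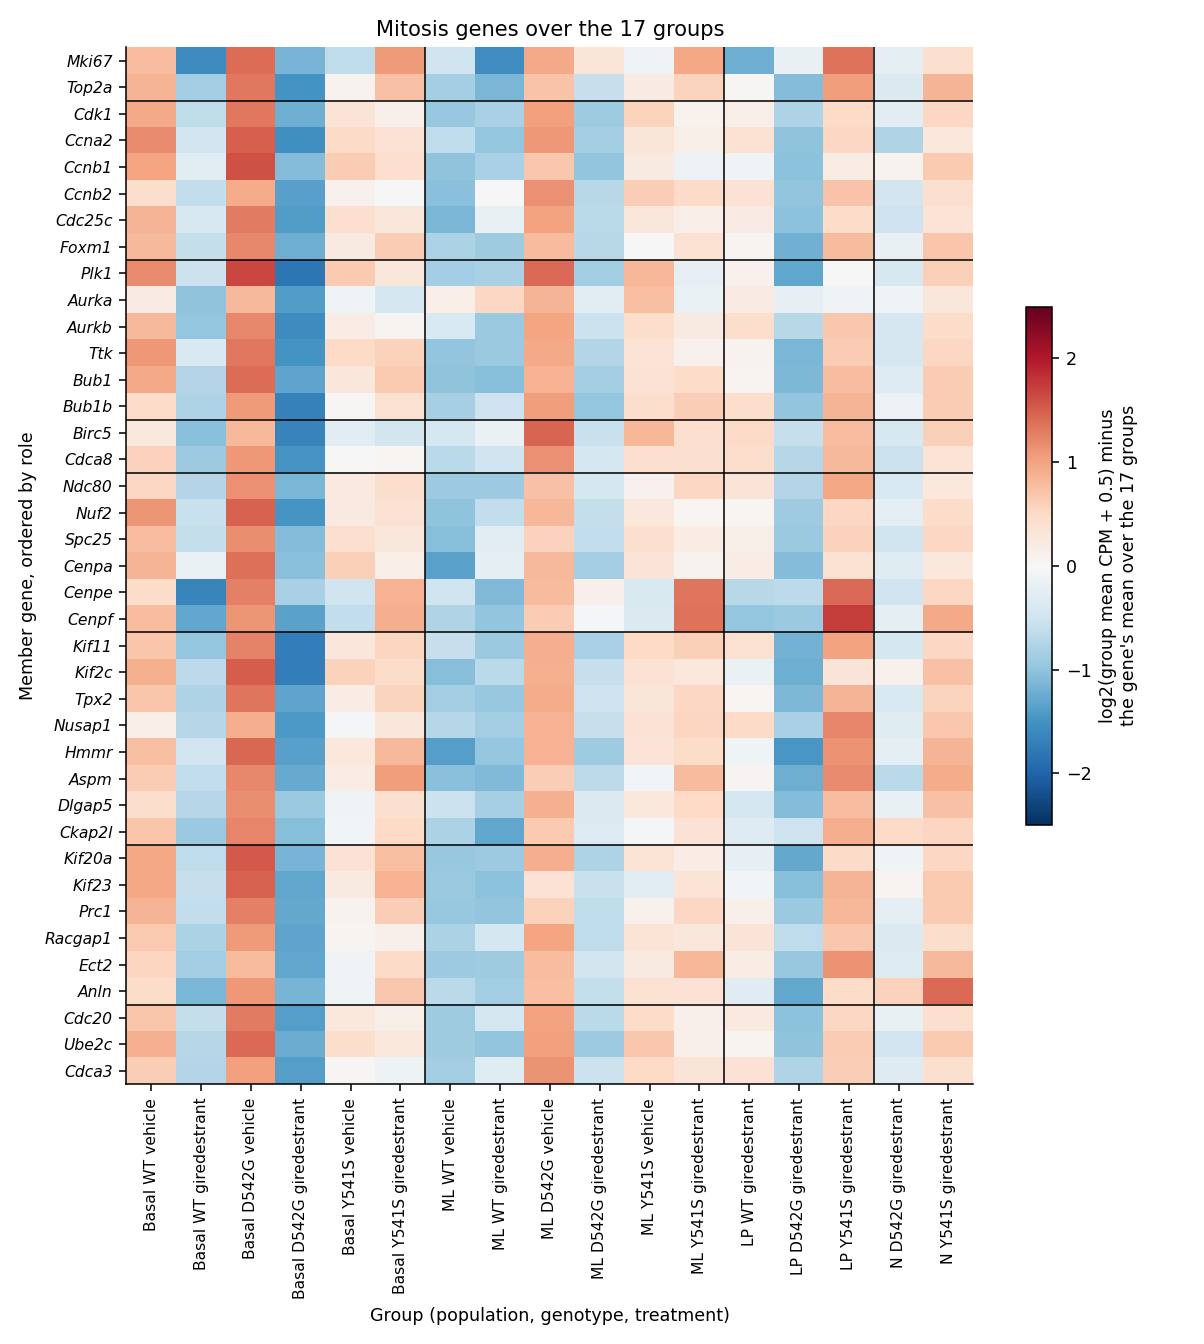
Level of each of the 39 mitosis genes (rows, ordered by role, lines between roles) in the 17 groups (columns, lines between populations), as log2(group mean CPM + 0.5) minus the gene's mean over the groups. D542G vehicle Basal is high and D542G giredestrant Basal low over nearly all rows, and Mki67, Cenpe and Cenpf stand out in the Y541S giredestrant columns.

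In ML, giredestrant lowered mitosis genes in D542G, while in WT and Y541S few genes passed and the medians lay near 0. In D542G, 35 of 39 were lower than with vehicle (11.3% of all genes were lower), and the median log2 ratio was -1.62 against 0.05 over all genes. Plk1 fell from 25.7, 73.4 and 37.7 CPM with vehicle to 12.0, 5.85 and 9.09 CPM with giredestrant (-2.41 ± 0.61, adjusted p = 0.0139). Birc5 fell from 52.8, 92.1 and 76.7 CPM to 16.3, 16.0 and 21.6 CPM (-2.10 ± 0.40, adjusted p = 0.00366). Bub1b, the gene of the checkpoint protein BubR1, fell from 66.0, 118 and 69.6 CPM to 24.4, 17 and 20.5 CPM (-2.10 ± 0.38, adjusted p = 0.00268). In each of these genes the treated libraries lay below every vehicle library. All 6 genes of mitotic entry, all 6 kinases and checkpoint genes, all 8 spindle genes and all 6 of cytokinesis fell. Among them were Cdk1 (-2.0 ± 0.46), the transcription factor Foxm1 (-1.59 ± 0.37), Aurkb, the kinase of the chromosomal passenger complex (-1.62 ± 0.39), the spindle motor Kif11 (-1.83 ± 0.40), Tpx2, which activates Aurora A (-1.53 ± 0.42), and Prc1, which bundles central spindle microtubules (-1.28 ± 0.37). The smallest falls that passed were those of Kif23 (-1.01 ± 0.32), the microtubule protein Ckap2l (-1.09 ± 0.36) and Aurka (-1.22 ± 0.32). Mki67 (-0.75 ± 0.45), Cenpf (-0.76 ± 0.38), Cenpe (-0.78 ± 0.53) and Spc25, a subunit of the NDC80 complex (-1.28 ± 0.45), did not pass. Without D542G vehicle ML replicate 2, the highest library, 12 genes passed, and without D542G giredestrant ML replicate 2, 16 passed. A single fit of all 51 libraries gave 15. Markers of luminal cells moved with this change. The 7 LP markers summed to 1109 to 1535 CPM in D542G vehicle ML and 3041 to 4882 CPM with giredestrant, and the 4 pan-luminal markers to 10613 to 11525 CPM and 14233 to 15031 CPM, without overlap, and their part in the result was not tested.

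In WT ML, 2 of 39 genes passed, both higher with giredestrant (17.1% of all genes were higher), and the median log2 ratio was -0.02. Ccnb2 was at 46.1, 19.7 and 84.4 CPM, against 28.3, 17.7 and 26.6 CPM with vehicle (1.03 ± 0.38, adjusted p = 0.048), and the groups overlapped. Cenpa was at 45.1, 22.7 and 68.6 CPM against 21.5, 15.7 and 26.1 CPM (1.09 ± 0.32, adjusted p = 0.0164), also with overlap. Without WT giredestrant ML replicate 2, 4 genes passed and all were higher. Without replicate 3, 4 passed and all were lower, and without WT vehicle ML replicate 2 the 2 that passed were lower. Leaving out any other library left 1 gene. Mki67 had a ratio of -1.23 ± 0.46 (adjusted p = 0.0506).

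In Y541S ML, 3 of 39 passed (24.9% of all genes called), and the median log2 ratio was -0.11. Cenpf was at 21.6, 22.6 and 28.2 CPM with giredestrant and 5.04, 7.85 and 7.91 CPM with vehicle (1.71 ± 0.39, adjusted p = 0.00593). Cenpe was at 12.2, 13.1 and 20.0 CPM against 3.66, 5.09 and 3.94 CPM (1.75 ± 0.55, adjusted p = 0.0294). Aurka was lower, at 21.4, 16.7 and 30.1 CPM against 39.6, 37.2 and 52.2 CPM (-1.0 ± 0.32, adjusted p = 0.0326). The treated and vehicle libraries of these 3 genes did not overlap. With scaling within 10 bins of transcript length, Cenpf alone passed (1.25, adjusted p = 0.046), and leaving out 1 library left 1 or 2 genes, with 1 without Y541S vehicle ML replicate 1 or 3 or giredestrant ML replicate 2.

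The response of ML to giredestrant was more negative in D542G than in WT for 9 mitosis genes (2.39% of all genes were more negative), with a median difference of -1.78. Ccnb2 (-2.95 ± 0.54), Cenpa (-2.84 ± 0.46) and Cdc25c (-2.80 ± 0.57) differed most. DESeq2 called 23. The count was 4 without WT vehicle ML replicate 2 or D542G vehicle ML replicate 2, and 22 without WT giredestrant ML replicate 2. Between Y541S and WT, the response was more positive for Cenpf (1.98 ± 0.55) and Mki67 (2.28 ± 0.65), 2 of 39 genes (3.98% of all genes were more positive). No gene was more positive without any 1 library other than WT vehicle ML replicate 2 (2 genes) or WT giredestrant ML replicate 3 (3 genes), and without WT giredestrant ML replicate 2 the 2 that passed were more negative. Between Y541S and D542G no gene of any kind passed in edgeR (0% of all genes). Of the mitosis genes, 34 had an unadjusted p under 0.05, the median difference was 1.56, and DESeq2 called 15.

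**Figure D4:**
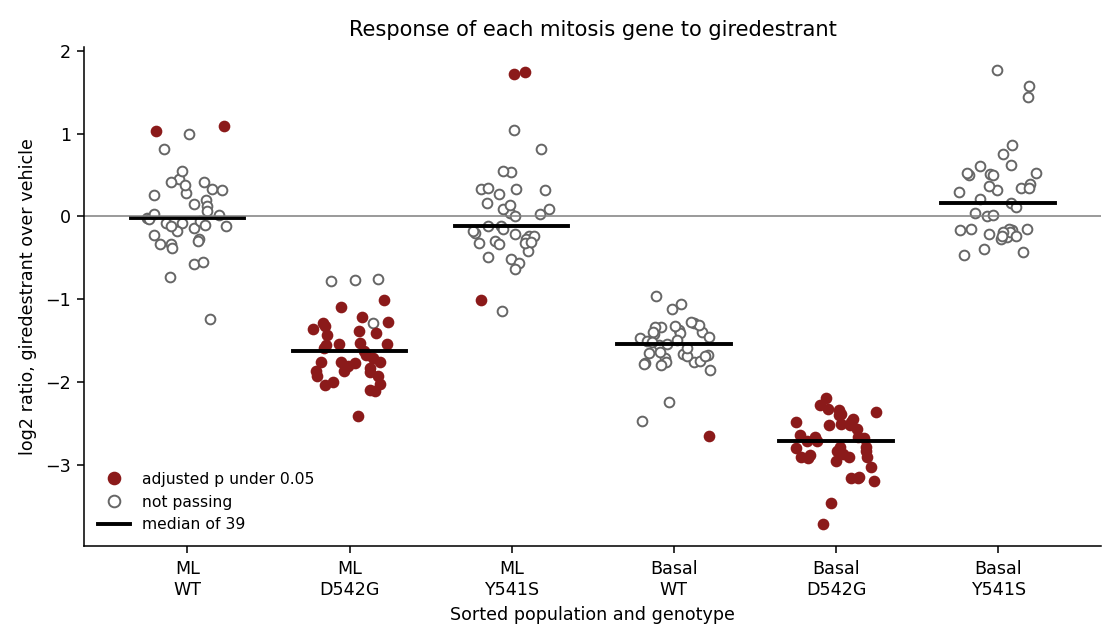
Log2 ratio of giredestrant over vehicle (vertical axis) for each of the 39 mitosis genes (points, spread sideways at random) in ML and Basal of each genotype. Filled points have an adjusted p under 0.05 and lines are medians, which are -1.62 and -2.71 in D542G ML and Basal and -0.11 and 0.16 in Y541S.

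In Basal, every mitosis gene was lower with giredestrant in D542G (39 of 39, against 15.6% of all genes lower), and the median log2 ratio was -2.71. Plk1 fell from 30.7, 85.8 and 47.3 CPM to 5.11, 6.55 and 1.62 CPM (-3.71 ± 0.88, adjusted p = 0.0069). Kif2c, a motor that takes microtubules apart, fell from 33.1, 65.0 and 46.3 CPM to 7.64, 4.63 and 1.69 CPM (-3.46 ± 0.91, adjusted p = 0.0122). Top2a fell from 111, 242 and 174 CPM to 36.7, 27.3 and 10.4 CPM (-2.90 ± 0.82, adjusted p = 0.017). Nuf2 (-3.19 ± 0.82) was the third largest fall, and Ect2, which starts the cleavage furrow, was the smallest (-2.19 ± 0.64). All 39 genes had treated libraries below every vehicle library. Among the other genes, Ndc80, the subunit that grips microtubules, fell by 2.51 on the log2 scale, Ube2c, the ubiquitin-conjugating enzyme of the anaphase-promoting complex, by 2.78, and Anln, the cytokinetic scaffold anillin, by 2.35. Ccna2, the gene of cyclin A2 (-3.15 ± 0.79), the checkpoint kinase Bub1 (-2.86 ± 0.85), the central spindle motor Kif20a (-2.82 ± 0.73), Racgap1 of the centralspindlin complex (-2.48 ± 0.66) and the spindle protein Dlgap5 (-2.28 ± 0.80) also fell. Pan-luminal markers (Krt8, Krt18, Krt19 and Epcam) summed to 834 to 1529 CPM in D542G vehicle Basal and 2063 to 3845 CPM in D542G giredestrant Basal. Sums of ML, LP, endothelial, pericyte and adipocyte markers were also higher with giredestrant there, without overlap. Endothelial markers, for example, went from 104 to 139 CPM with vehicle to 234 to 455 CPM with giredestrant. Sums of immune, fibroblast and Basal markers overlapped. The part of all these markers in the result was not tested. Without D542G vehicle Basal replicate 2, 13 genes passed, all lower, with a median of -2.43. Without D542G giredestrant Basal replicate 1 or 3, 24 and 18 passed.

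In WT Basal, Mki67 alone passed, lower with giredestrant (6.53% of all genes were lower), while the median log2 ratio was -1.54. Mki67 fell from 15.3, 7.79 and 14.1 CPM to 1.14, 0.667 and 4.25 CPM (-2.65 ± 0.73, adjusted p = 0.0306). The summed level was 317, 84 and 1561 CPM with giredestrant and 2509, 978 and 1955 CPM with vehicle, so that replicate 3 of the treated group lay within the vehicle range and the other two below it. Without that library all 39 genes passed as lower, with a median of -3.42. Without WT vehicle Basal replicate 2, 3 passed, and without any other library none did. In Y541S Basal no gene passed (15.1% of all genes called, 2 mitosis genes at an unadjusted p under 0.05 in edgeR), with a median of 0.16. The summed level there was 1097, 1099 and 2016 CPM with giredestrant and 1095, 979 and 1626 CPM with vehicle.

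The difference in Basal response between D542G and WT passed for no gene (0.629% of all genes called, none at an unadjusted p under 0.05, edgeR), with a median of -1.14. Between Y541S and WT it passed for Mki67 (4.42 ± 1.0, adjusted p = 0.0221, with 2.75% of all genes more positive), and without WT giredestrant Basal replicate 3 for 34 genes. It passed for 3 genes without WT vehicle Basal replicate 2, and for none without Y541S vehicle Basal replicate 2 or WT giredestrant Basal replicate 1. Between Y541S and D542G it also passed for Mki67 alone (4.6 ± 1.0, adjusted p = 0.0417, with 0.978% of all genes more positive), and for none without any 1 library other than D542G vehicle Basal replicate 1 (2 genes) or D542G giredestrant Basal replicate 3 (1 gene). For that comparison the median difference was 2.96, 38 genes had an unadjusted p under 0.05, and DESeq2 called 13.

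With giredestrant, mitosis genes were higher in Y541S ML than in WT ML for 19 of 39 (8.38% of all genes were higher), with a median log2 ratio of 1.12. Mki67 was at 13.3, 12.4 and 16.7 CPM, against 2.55, 0.828 and 2.85 CPM (2.73 ± 0.48, adjusted p = 0.00333). Cenpe (2.63 ± 0.57) and Cenpf (2.43 ± 0.40) followed. By role, 7 of 8 spindle genes were higher and none of the 3 genes grouped under anaphase and protein destruction was. Over the 39 genes, however, this log2 ratio correlated with log2 transcript length at r = 0.82. Its median was 0.48 in the 10 shortest and 1.60 in the 10 longest. The part of length in this contrast of roles was not tested. Leaving out 1 library gave 5 to 33 genes, the fewest without WT giredestrant ML replicate 2 and the most without replicate 3. It was 6 without WT giredestrant ML replicate 1, and 11 without Y541S giredestrant ML replicate 1 or 3, and a single fit of all 51 libraries gave 5. In these groups the ML markers summed to 1104 to 1658 CPM in Y541S and 2720 to 4208 CPM in WT, and the fibroblast markers to 281 to 349 CPM and 52.8 to 113 CPM, without overlap, and their part was not tested. In D542G ML against WT ML, Mki67 alone was higher (1.85% of all genes were higher), at 4.72, 6.18 and 15.5 CPM (2.06 ± 0.47, adjusted p = 0.0322), and the median was 0.10. It did not pass without D542G giredestrant ML replicate 3 or without any 1 of the WT libraries.

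In Basal with giredestrant, Y541S exceeded WT in Mki67 (2.85 ± 0.73, adjusted p = 0.0177) and Cenpe (2.83 ± 0.83, adjusted p = 0.0335). These are 2 of 39 genes, below the share over all genes (7.59% were higher). Without WT giredestrant Basal replicate 3, 38 passed, while none did without WT replicate 1 or 2 or Y541S replicate 3, and 1 without Y541S replicate 2. D542G against WT gave none (4.97% of all genes called, none at an unadjusted p under 0.05, edgeR), and the median of -0.68 became 1.18 without that library. In LP, Cenpf was at 32.2, 31.8 and 29.6 CPM in Y541S and 4.93, 2.27 and 6.00 CPM in WT (2.76 ± 0.35, adjusted p = 0.017). Mki67 (2.71 ± 0.42) and Cenpe (2.19 ± 0.36) were also higher there, 3 of 39 genes (2.43% of all genes were higher), beside the fibroblast marker sums given above, whose part was not tested. None passed without WT LP replicate 1 or 3 or without Y541S LP replicate 2. None of the 39 passed between D542G and WT LP (0.0302% of all genes called), although 16 had an unadjusted p under 0.05 in edgeR, 15 of them lower in D542G, and the median was -1.17. The other was Mki67, at 6.73, 6.78 and 4.78 CPM in D542G and 4.05, 1.19 and 2.93 CPM in WT. WT LP libraries summed to 1242, 369 and 2063 CPM, and D542G LP libraries to 525, 357 and 803 CPM.

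Between populations of WT with giredestrant no mitosis gene passed, in ML against Basal (41.4% of all genes called), LP against ML (0.0664%) or LP against Basal (38.6%). None had an unadjusted p under 0.05 in edgeR. The medians were -0.06, 0.99 and 0.87. Without WT giredestrant Basal replicate 3, 17 genes were higher in LP and 3 in ML than in Basal. Same-numbered WT libraries deviated together between ML and LP (r from 0.149 to 0.325) and between ML and Basal (0.13 to 0.278), and with 1 pair of 3 below 0.1 between LP and Basal (0.048 to 0.335). With the replicate number as a block, 3 genes were higher in ML than in Basal and 21 in LP than in Basal, and LP and ML again differed in none.

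In D542G with giredestrant, 13 of 39 mitosis genes were higher in N than in Basal (12.1% of all genes were higher), while the counts against LP (6 of 39, with 13.8% of all genes higher) and against ML (1 of 39, with 10.8%) were near or below the share over all genes. Anln was the gene called in each of the 3. It was at 83.1, 51.3 and 50.6 CPM in N, 33.1, 21.7 and 26.2 CPM in ML, 15.6, 12.8 and 21.8 CPM in LP and 23.1, 22.4 and 8.83 CPM in Basal. For Anln every N library thus lay above every library of the others. Anln was the 1 gene higher in N than in ML (1.22 ± 0.36, adjusted p = 0.0197), and it did not pass without N replicate 1 or ML replicate 2 or 3. The 6 higher than in LP included Anln (1.91 ± 0.36), Kif2c (1.41 ± 0.48) and Hmmr (1.31 ± 0.47). Without LP replicate 3 the count was 13, without LP replicate 2 it was 1, and without N replicate 1 or 2 it was 2. The 13 higher than in Basal were led by Kif2c (1.97 ± 0.49), Anln (1.80 ± 0.36) and Ckap2l (1.64 ± 0.36), and leaving out 1 library gave 5 to 15, with 5 without Basal replicate 3 and 7 and 8 without N replicate 1 and 2. Among the remaining D542G populations, ML exceeded Basal in 5 of 39 genes, below the share over all genes (14.6% were higher). They were Mki67 (1.63 ± 0.59), Cenpf (1.45 ± 0.47), Birc5 (1.17 ± 0.44), Aurka (1.15 ± 0.41) and Cdca8, a passenger complex partner, with adjusted p = 0.0457. Without ML replicate 3 or Basal replicate 3 none passed, and 1, 3 and 2 passed without ML replicate 1, ML replicate 2 and Basal replicate 2. With the replicate number of D542G as a block, 1 passed, Cenpf. LP exceeded Basal in Aurka alone (1.22 ± 0.41, with 14.2% of all genes higher). That count was 0 without Basal replicate 1 or 3 or LP replicate 3, and 2 without LP replicate 2 or Basal replicate 2. LP and ML differed in none (0.0438% of all genes called, 1 mitosis gene at an unadjusted p under 0.05, edgeR).

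In Y541S with giredestrant, Anln was also higher in N, at 106, 87.1 and 139 CPM, than in ML at 41.9, 41.1 and 75.1 CPM (1.10 ± 0.35, adjusted p = 0.0472, with 6.97% of all genes higher). It exceeded LP at 47.0, 53.1 and 70.0 CPM (1.0 ± 0.35, adjusted p = 0.0473, with 10.9% of all genes higher). It was the 1 mitosis gene that passed in each, and under relative log expression scaling it passed in neither. Without N replicate 3, 1 gene was lower in N than in ML and 3 were lower than in LP, and none passed without N, ML or LP replicate 1 or 2. With the number within genotype as a block, 4 genes passed against LP, 1 higher and 3 lower in N. N and Basal differed in none (33.6% of all genes called, 2 mitosis genes at an unadjusted p under 0.05, edgeR), and in 2 higher genes with the block. Without Basal replicate 3, 2 were higher, without N replicate 1 or 2, 1 was higher, and without N replicate 3, 1 was lower. ML and Basal differed in none (31.4% of all genes called), nor did LP and ML (2.3%), with no gene at an unadjusted p under 0.05 in edgeR. LP exceeded Basal in Birc5 alone, at 52.3, 33.7 and 50.9 CPM against 15.5, 16.0 and 26.0 CPM (1.24 ± 0.43, adjusted p = 0.0419, with 11.1% of all genes higher), and none passed without LP replicate 1 or 3 or Basal replicate 1 or 2. Between the mutants, N of Y541S exceeded N of D542G in Aspm, a spindle pole protein, at 12.0, 14.2 and 26.1 CPM against 6.23, 5.85 and 3.98 CPM (1.71 ± 0.45, adjusted p = 0.0223). Ect2 was the other gene that passed (1.16 ± 0.34, with 4.13% of all genes higher), and the count lay near that share. None passed without Y541S N replicate 3 or without any 1 of the D542G libraries, and 1 passed without Y541S N replicate 1. The Basal marker sums differed between these N groups as given above, and their part was not tested.

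Size of the transcript moved with several of these ratios. The longest coding transcript ranged from 1466 bases in Cenpa to 11130 bases in Cenpf, with Mki67 at 10061 and Cenpe at 7910. In Basal of Y541S, the log2 ratio of giredestrant to vehicle correlated with log2 length at r = 0.86 over the 39 genes, a description across genes of the same libraries. The 10 shortest had a median of -0.18 and the 10 longest 0.68. Over all genes tested there, the median was -0.25 for those under 2 kb and 0.34 for those over 6 kb. In Basal of D542G r was 0.04, with medians of -2.60 and -2.71 in the 10 shortest and 10 longest. In WT Basal r was -0.57. In ML of Y541S r was 0.75, and in LP of Y541S against WT it was 0.80. Mki67, Cenpf and Cenpe, 3 of the longest, were the 3 genes called in that LP comparison, and with scaling within 10 length bins their ratios there were 2.40, 2.46 and 1.88, still past the threshold. The part of transcript length in these ratios was not tested beyond this scaling.

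**Figure D5:**
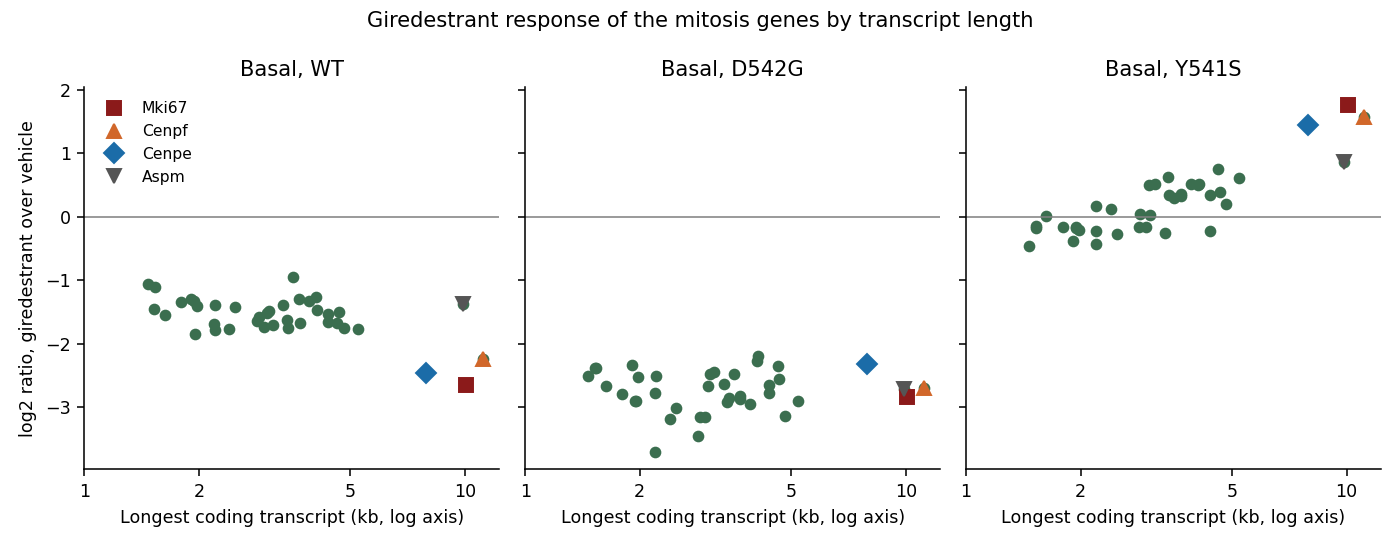
Log2 ratio of giredestrant over vehicle in Basal cells (vertical axis) against the length of the longest coding transcript in kb (log axis) for the 39 mitosis genes, by genotype, with Mki67, Cenpf, Cenpe and Aspm marked. The correlation is -0.57 in WT, 0.04 in D542G and 0.86 in Y541S.

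Other genes of mitosis, from a list of 62 that shares no member with the 39, were counted in the same fits, where 60 were tested. In WT vehicle, 52 of 60 were lower in ML than in Basal (29.2% of all genes were lower). In ML with vehicle, 49 were higher in D542G than in WT and 1 lower (9.37% of all genes higher, 10.2% lower). In Y541S, 19 were higher than in WT and 1 lower (4.79% of all genes higher, 6.08% lower). With giredestrant, 44 fell and 1 rose in D542G ML (11.3% of all genes lower, 9.34% higher). In D542G Basal 57 fell (15.6% of all genes lower), and none passed in Y541S Basal (15.1% of all genes called). Medians for those comparisons were -1.52, 1.63, 1.04, -1.45, -2.40 and 0.02, beside -1.60, 1.82, 1.17, -1.62, -2.71 and 0.16 for the 39. Some members overlap other genes of the annotation, counted on either strand and with introns of those genes. Prc1 is overlapped over its whole span and Ube2c over 62.8% of its exon bases, and Ccnb1 and Ccnb2 have named pseudogenes. Sharing of reads was not examined, so the levels of these genes are less certain than those of the others.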

How the data were processed

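RNA-seq counts per Ensembl gene and RPKM values were deposited for each of the 51 libraries, per the file headers. The counts are raw read counts as the authors deposited them, and the submitters' processing notes name the build GRCm38. Neither labels nor headers state an aligner, a counter or a strand setting. The RPKM values, which the authors scaled by a gene width per the file headers, were not used. The mitosis genes and all lists were chosen with earlier results of these data known. Groups came from titles and cell type labels, because 1 mature luminal source name is given to all samples.

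Counts were tested with the quasi-likelihood F test of edgeR 4.0.16 (R 4.3.3), TMM scaling and filtering by group, in separate fits for ML (18 libraries), Basal (18), LP (9), vehicle (18), WT giredestrant (9) and mutant giredestrant (24). P-values were adjusted over all genes of a fit (Benjamini-Hochberg), with a threshold of 0.05, for 43 comparisons, of which 4 were added after the data were seen. Standard errors came from the log2 ratio and F. All edgeR adjusted p-values in the text come from these fits unless another setting is named. Only the ML fit was run on simulated counts, for giredestrant against vehicle in D542G and with a fixed spread. That run does not cover the other fits or the spread of the real replicates. P-values weigh a difference between groups against the spread between libraries. The main fits held no replicate block. Alternatives were DESeq2 1.42.0, RLE scaling, no filter, all libraries in 1 fit, a replicate block and leaving out each library. Scaling within 10 length bins and a block by genotype and number were added later.

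Same-numbered libraries of the vehicle populations deviated together within each genotype (r from 0.161 to 0.23), as did those of Y541S with giredestrant (0.223 to 0.512). With giredestrant, every r was over 0.1 in 2 of 3 population pairs of WT (0.048 to 0.335 in all) and in 3 of 6 of D542G (-0.007 to 0.189 in all). Between groups of 1 population this held for none of 33 group pairs, so numbers were not taken as pairing across genotypes or treatments. Named genes were a fixed set of 16 with the 3 largest called changes in each direction per comparison, and every member called in a direction with 5 or fewer calls. Other members were named, after their values were seen, so that each of the 39 appears, or as the smallest change or a gene that did not pass.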

Additional observations from a re-analysis of the deposited data

Results flagged for a closer look

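The response to giredestrant differed between genotypes by an interaction test in 4 comparisons. In ML it was more negative in D542G than in WT for 9 mitosis genes, among them Ccnb2, Cenpa, Cdc25c, Bub1b and Birc5. In ML it was more positive in Y541S than in WT for 2, Cenpf and Mki67. In Basal it was more positive in Y541S for 1 gene, Mki67, both against WT and against D542G, the latter also with a count of 1. Over all genes the shares in these directions were 2.39%, 3.98%, 2.75% and 0.978%, so that 2 of 39 and 1 of 39 against WT are near the share over all genes. Leaving out 1 library took each of the 3 Y541S counts to 0 in at least 1 case, and the D542G count to 4. The causes were not tested.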

How the results depend on the processing

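Counts are mitosis genes called. Of 43 comparisons, the count stayed within 1.5 times with RLE scaling in 41, without the filter in 39, with a replicate block in 36, within length bins in 32, with DESeq2 in 29 and with all 51 libraries in 1 fit in 15. RLE scaling gave 0 for Y541S N against ML and LP. No filter gave 3 for WT Basal giredestrant against vehicle, 3 and 7 for the Basal response of Y541S against WT and D542G, and 0 for Y541S N against ML. DESeq2 gave 4 for giredestrant against vehicle in WT ML and in WT Basal, 26 for Y541S against WT in vehicle ML, and 23, 5 and 15 for the ML response of D542G and Y541S against WT and of Y541S against D542G. It gave 3 and 13 for the Basal response of Y541S against WT and D542G, 14 and 31 for the vehicle differences of D542G and Y541S, 2 and 24 for D542G LP and N against Basal, 1 for Y541S N against Basal and 4 for N between the mutants.

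With all 51 libraries in 1 fit, giredestrant against vehicle gave 0, 15 and 1 in WT, D542G and Y541S ML and 4 in WT Basal. Mutants against WT gave 20 and 1 in vehicle ML, 0 and 5 in giredestrant ML, and 4 for Y541S in giredestrant Basal. Response differences gave 3 and 0 in ML, and 3 and 9 in Basal for Y541S against WT and D542G. The vehicle ML and Basal comparisons of both mutants and their differences from WT gave 0. WT giredestrant ML and LP against Basal gave 1 and 2. In D542G, ML and LP against Basal gave 1 and 0, and N gave 0, 1 and 4 against ML, LP and Basal. Y541S LP against Basal, N against ML and LP, and N between the mutants gave 0.

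Length-bin scaling gave 4 and 1 for giredestrant in WT and Y541S ML, 14 and 0 for the ML response of D542G and Y541S against WT, 1 for Y541S against WT in giredestrant Basal, 0 for the Basal response of Y541S against D542G, 8 and 2 for D542G ML and LP against Basal, 0 for Y541S N against ML and LP, and 1 for N between the mutants. Without Y541S giredestrant ML 1 and 2, giredestrant in Y541S ML gave 1, Y541S against WT 4, their response difference 0 and Y541S N against ML 0.

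A replicate block by plain number gave 4 for WT ML giredestrant, 3 for WT Basal giredestrant, 3 for the Basal response of Y541S against WT, 3 and 21 for WT giredestrant ML and LP against Basal, 10 for D542G N against LP and 1 for Y541S N against Basal. The block by genotype and number gave 19 and 10 for D542G and Y541S vehicle ML against Basal, 33 and 37 for their differences from WT, 4 for Y541S N against LP, of which 3 were lower, and 2 for N against Basal, and 1 for D542G giredestrant ML against Basal, and changed no other of its 17 counts beyond 1.5 times.

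Leaving out 1 library at a time gave these ranges. For giredestrant against vehicle the count was 1 to 4 in WT ML, where it turned from higher to lower, 12 to 35 in D542G ML, 1 to 2 in Y541S ML, 0 to 39 in WT Basal and 13 to 39 in D542G Basal. For mutants against WT it was 22 to 37 and 1 to 5 for D542G and Y541S in vehicle ML, 0 to 1 and 5 to 33 in giredestrant ML, and 0 to 38 and 0 to 3 for Y541S in giredestrant Basal and LP. For response differences it was 4 to 22 for D542G and 0 to 3 for Y541S against WT in ML, the latter turning more negative without WT giredestrant ML replicate 2 with 2 genes, and 0 to 34 and 0 to 2 for Y541S against WT and D542G in Basal. For vehicle ML against Basal it was 31 to 38, 0 to 2 and 0 to 3 in WT, D542G and Y541S, with 1 turned higher in D542G, and 2 to 16 and 2 to 33 for the differences of D542G and Y541S from WT. With giredestrant it was 0 to 3 and 0 to 17 for WT ML and LP against Basal, 0 to 6 and 0 to 2 for D542G ML and LP against Basal, and 0 to 1, 1 to 13 and 5 to 15 for D542G N against ML, LP and Basal. It was 0 to 1 for Y541S LP against Basal, 0 to 1, 0 to 3 and 0 to 2 for Y541S N against ML, LP and Basal, turned lower with 1 and 3 genes in the first pair, and 0 to 2 for N between the mutants. The other counts stayed at 0.

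Of 776 single-gene values under alternatives, 179 kept their direction and no longer passed, and 0 reversed. Only 4 of 1989 member values were under 10 counts, and these are the least precise. All 4 came from WT giredestrant Basal replicate 2, which had 29.6 M total counts. The causes of the shifts between settings were not tested.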

Other observations

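S phase genes, a list of 32 genes of DNA replication of which 29 were tested, were counted in the same fits. In D542G with giredestrant, 25 of 29 fell in ML (11.3% of all genes were lower, median log2 ratio -1.20). In D542G Basal 28 fell (15.6% of all genes were lower, median -1.88). In WT Basal 21 of 29 were lower with giredestrant (6.53% of all genes were lower, median -1.56), where 1 of the 39 mitosis genes passed (median -1.54). Without WT giredestrant Basal replicate 3, all 39 mitosis genes passed as lower. In Y541S Basal none of the 29 passed in edgeR (15.1% of all genes called), 1 had an unadjusted p under 0.05, and the median was 0.06. The difference between the lists was not tested.

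Pairs of CCAAT boxes whose first bases lie 31 to 34 bases apart occurred in 9 of the 32 mitosis gene promoters (28.1%), against 1.28% of 27025 promoters. TTTGAA or TTCGAA occurred in 32 of 51 promoters of the other mitosis genes (62.7%) and in 6 of 26 of the S phase genes (23.1%).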
